A study of Homo sapiens with 4 samples.

Results

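The interferon-stimulated genes described here are 42 genes that interferons are known to induce, chosen as a named list and found on the array by RefSeq accession. Of these, 41 had a matched probe, 29 gave a signal well above background on all 4 arrays, 3 did so on some arrays (OAS1, SAMD9 and HERC6), and 9 on none (OAS2, MX2, RSAD2, SAMD9L, TRIM22, GBP1, IFI44L, XAF1 and EPSTI1). IFI27 was not matched to a probe and is not analysed here. Across the whole array, 21611 genes had a matched probe and 12752 of them were well above background on all 4 arrays. These 12752 genes are the background for the array counts given here, and are called all genes below.

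The cells were HCT116, a human colorectal carcinoma line, divided by a membrane migration assay into a subpopulation that migrated (MG cells) and one that did not (non-MG cells), each enriched by repeating the assay. Each subpopulation was given 5 µM 5-azacytidine, a nucleoside that inhibits DNA methyltransferases, or vehicle for 48 h, and 400 ng of total RNA was labelled for a single-colour Agilent expression array. There was 1 array for each of the 4 conditions, with no replicate, so no test between conditions was possible and no p-value is given. All 4 arrays lay on 1 slide with non-MG cells in row 1 and MG cells in row 2, and with vehicle in column 3 and 5-azacytidine in column 4, so cell type and slide row cannot be told apart, nor can treatment and slide column.

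Type I interferons bind a receptor of the subunits IFNAR1 and IFNAR2, and the kinases JAK1 and TYK2 then phosphorylate STAT2. With IRF9 it is part of a complex that binds the interferon-stimulated response element, a pair of GAAA blocks found in the promoters of many induced genes. Inhibitors of DNA methyltransferases are known in some cancer cell lines to raise transcripts of endogenous repeats, whose double-stranded RNA is read by sensors such as IFIH1 and can start this response. The question put to these arrays was whether the interferon-stimulated genes were higher after 5-azacytidine in either subpopulation, and how their levels differed between the subpopulations with vehicle.

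The response element was looked up in the promoters because it is the feature these genes share by their known regulation. RefSeq windows of GRCh38.p14, from 250 bases before to 50 bases after the transcription start, were matched for 34 of the 42 genes. The letters GAAANNGAAA, or TTTCNNTTTC on the other strand, were present in 24 of these 34 windows (70.6%), compared with 1195 of the 27305 genes with a window (4.38%). Of the genes lower in MG cells with vehicle, 3 are shown beside 3 that lay within 1.5-fold in every comparison. Each stretch runs from 160 bases before to 20 bases after the start, 5′ to 3′ on the strand of the gene, with matches in capitals; matches that overlap run together. BST2 is at chr19:17405611-17405790 (minus strand), IFITM1 at chr11:313880-314059 (plus strand) and IFITM3 at chr11:320841-321020 (minus strand), which were lower in MG cells.
BST2: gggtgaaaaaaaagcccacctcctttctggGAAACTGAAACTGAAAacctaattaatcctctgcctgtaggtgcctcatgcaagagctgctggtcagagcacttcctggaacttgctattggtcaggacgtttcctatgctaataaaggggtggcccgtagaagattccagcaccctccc
IFITM1: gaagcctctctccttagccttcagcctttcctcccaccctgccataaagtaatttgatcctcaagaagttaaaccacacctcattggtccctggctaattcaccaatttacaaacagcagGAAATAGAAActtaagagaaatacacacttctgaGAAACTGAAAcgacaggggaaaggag
IFITM3: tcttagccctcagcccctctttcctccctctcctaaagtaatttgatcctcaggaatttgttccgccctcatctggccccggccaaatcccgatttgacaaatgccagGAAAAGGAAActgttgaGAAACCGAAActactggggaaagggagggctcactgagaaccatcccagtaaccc

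ISG15 is at chr1:1013337-1013516 (plus strand), IFIT1 at chr10:89392463-89392642 (plus strand) and IFI6 at chr1:27672173-27672352 (minus strand), which lay within 1.5-fold throughout.
ISG15: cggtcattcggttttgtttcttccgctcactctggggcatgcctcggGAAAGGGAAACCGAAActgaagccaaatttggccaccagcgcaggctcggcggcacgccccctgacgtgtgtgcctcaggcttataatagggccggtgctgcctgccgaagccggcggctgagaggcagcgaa
IFIT1: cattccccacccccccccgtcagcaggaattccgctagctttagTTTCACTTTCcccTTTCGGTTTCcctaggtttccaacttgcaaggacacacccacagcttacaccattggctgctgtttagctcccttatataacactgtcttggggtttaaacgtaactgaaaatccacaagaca
IFI6: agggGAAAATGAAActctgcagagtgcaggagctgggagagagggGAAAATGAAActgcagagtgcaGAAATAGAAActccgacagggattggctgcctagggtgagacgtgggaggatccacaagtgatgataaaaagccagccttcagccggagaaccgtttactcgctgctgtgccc

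IFI6 held 3 matches and the other stretches 2 each. Of the 29 genes measured on every array, 3 of the 4 genes lower in MG cells that had a window held the element (75%), as did 15 of the 20 that were not lower (75%), so its presence did not separate these groups. The gamma-activated sequence, searched as TTCNNNGAA, which reads the same on both strands, was in 11 of the 34 windows (32.4%), compared with 9.38% of the same 27305 genes. In the stretches shown, BST2 had 2 CpG dinucleotides, IFITM1 1, IFITM3 4, ISG15 15, IFIT1 4 and IFI6 5. These letter matches describe the sequence only, and no binding or methylation was measured on these arrays.

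Signals are given on a linear scale as multiples of the 75th percentile of their array, called the scaled signal, and comparisons as log2 ratios of it. For genes with 2 probes the scaled signal is the geometric mean. The error printed after ± is the spot error of the log2 ratio. It was computed from the spread between spots of a probe at that intensity, divided down for the number of spots and probes and combined over the arrays compared. It is therefore smaller than the spread between spots for genes with many spots, and it holds no difference between cultures or labellings. A gene was counted as higher or lower past 1.5-fold, which is 0.58 on the log2 scale. Levels are compared between arrays for a gene and never between genes.

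With vehicle, 7 of the 29 interferon-stimulated genes measured on all arrays (24.1%) were lower in MG than in non-MG cells past 1.5-fold and 0 were higher. Among all genes 7.55% were lower and 5.99% higher. The 7 were IFITM1, IFITM2, IFITM3, BST2, IRF7, OASL and STAT2, and they include all 4 membrane restriction factors. The log2 ratios of the 29 genes ran from -1.45 to 0.38 with a median of -0.21, compared with 0.01 for all genes, and 19 of 29 lay below 0. With 5-azacytidine, 4 of the 29 genes were lower in MG cells (IFITM1, IFITM3, BST2 and STAT2) and 3 were higher (DDX60, IFIT3 and IFI35), where 5.94% of all genes were lower and 6.12% higher. The median was then 0.09, compared with 0.05 for all genes. This balance depended on the processing. Under median centring 7 were higher and 1 lower, where 20.8% of all genes were higher and 2.02% lower. Under normexp background correction 1 was higher and 1 lower, where 5.28% of all genes were higher and 1.06% lower. In RNA of a whole culture, fewer cells that express a gene and less RNA per cell cannot be told apart. Of 9 colon epithelial markers 8 were well above background on all 4 arrays (VIL1 on none), and with vehicle 2 of the 8 were lower in MG cells, CDH1 (log2 ratio -0.66 ± 0.02) and CLDN4 (-0.73 ± 0.07). The paper reports CDH1 as unchanged in MG cells, both in its expression profile and by qPCR with replicates. The other 6 epithelial markers lay within 1.5-fold, from KRT19 (-0.26 ± 0.07) to CDX2 and KRT8 (0.33 ± 0.09 each). Their part in the interferon-stimulated genes was not tested.

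Few interferon-stimulated genes passed 1.5-fold with 5-azacytidine in either subpopulation. In non-MG cells, 0 of 29 were higher past 1.5-fold and 1 was lower (DDX60), where 1.78% of all genes were higher and 1.44% lower. In MG cells 2 of 29 (6.90%) were higher, IRF7 and BST2, and 0 were lower, where 2.93% of all genes were higher and 1.61% lower. The median log2 ratio was -0.17 in non-MG cells and 0.13 in MG cells, compared with -0.05 and -0.01 for all genes. In non-MG cells 7 of 29 ratios lay above 0 (24.1%, compared with 40.5% of all genes), and in MG cells 22 of 29 did (75.9%, compared with 47.0%).

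**Figure D1:**
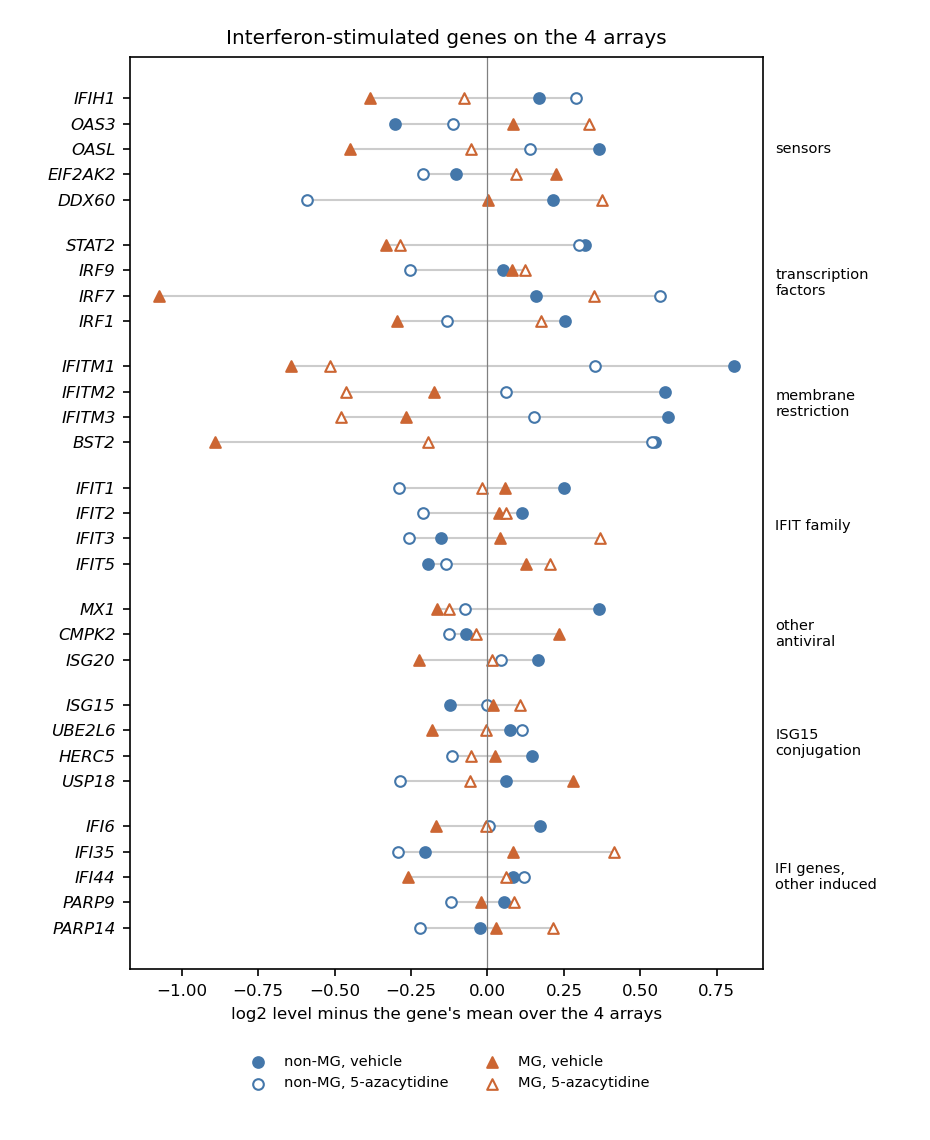
Level of each of the 29 interferon-stimulated genes on the 4 arrays, as the log2 level minus the mean of that gene over the 4 arrays, grouped by role; each symbol is 1 array and there are no replicates. Solid triangles (MG cells with vehicle) lie left of both circles for IRF7, IFITM1, IFITM2, IFITM3, BST2, OASL and STAT2. They also do so for IFIH1, IRF1, MX1, ISG20, UBE2L6, IFI6 and IFI44, which were within 1.5-fold between the cell types with vehicle. The open triangle of IRF7 (MG cells with 5-azacytidine) lies right of the solid circle.

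The 4 membrane restriction factors were all lower in MG cells with vehicle, with a median log2 ratio of -1.15, and 3 of the 4 were with 5-azacytidine, with a median of -0.68. IFITM1, IFITM2 and IFITM3 are membrane proteins that block the entry of enveloped viruses, and BST2 (tetherin) holds budding virus at the cell surface. IFITM1 had a scaled signal of 12.8 in non-MG cells with vehicle, 9.35 in non-MG cells with 5-azacytidine, 4.69 in MG cells with vehicle and 5.13 in MG cells with 5-azacytidine. Both MG arrays lay below both non-MG arrays. The log2 ratio of MG to non-MG cells was -1.45 ± 0.06 with vehicle, rank 48 from the lowest of 12752 genes, and -0.87 ± 0.06 with 5-azacytidine. Its 2 probes gave -1.53 and -1.37 with vehicle.

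For IFITM3 too, both MG arrays lay below both non-MG arrays. Its scaled signal was 317.8 and 234.5 in non-MG cells with vehicle and 5-azacytidine, and 175.5 and 151.5 in MG cells. The ratio of MG to non-MG cells was -0.86 ± 0.07 with vehicle and -0.63 ± 0.07 with 5-azacytidine. IFITM2 was at 170.3 and 118.9 in non-MG cells and at 100.9 and 82.7 in MG cells. It passed 1.5-fold with vehicle (-0.76 ± 0.07) and fell short of it with 5-azacytidine (-0.52 ± 0.07). With median centring, IFITM2 with vehicle (-0.56) and IFITM3 with 5-azacytidine (-0.37) were within 1.5-fold. For IFITM2 and IFITM3, 5-azacytidine was accompanied by a lower signal in both subpopulations, within 1.5-fold, at -0.52 and -0.44 in non-MG cells and -0.29 and -0.21 in MG cells (each ± 0.07). IFITM2, IFITM1 and IFITM3 are direct neighbours on chromosome 11 and belong to the same gene family. Cross-hybridisation between their probes was not checked, so the 3 may not be separate measurements.

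BST2 had a scaled signal of 1.57 and 1.55 in non-MG cells with vehicle and 5-azacytidine, and of 0.577 and 0.935 in MG cells. Both MG arrays were again below both non-MG arrays, at -1.44 ± 0.10 with vehicle and -0.73 ± 0.09 with 5-azacytidine. The response to 5-azacytidine was -0.01 ± 0.08 in non-MG cells and 0.70 ± 0.11 in MG cells. In MG cells its 2 probes gave 0.98 and 0.41, so that 1 of the 2 passed 1.5-fold, and with normexp the response of BST2 was 0.39. Its cell-type ratios with normexp were -0.83 with vehicle and -0.43 with 5-azacytidine. BST2 shares no neighbouring position with the IFITM genes and is not a member of their family.

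**Figure D2:**
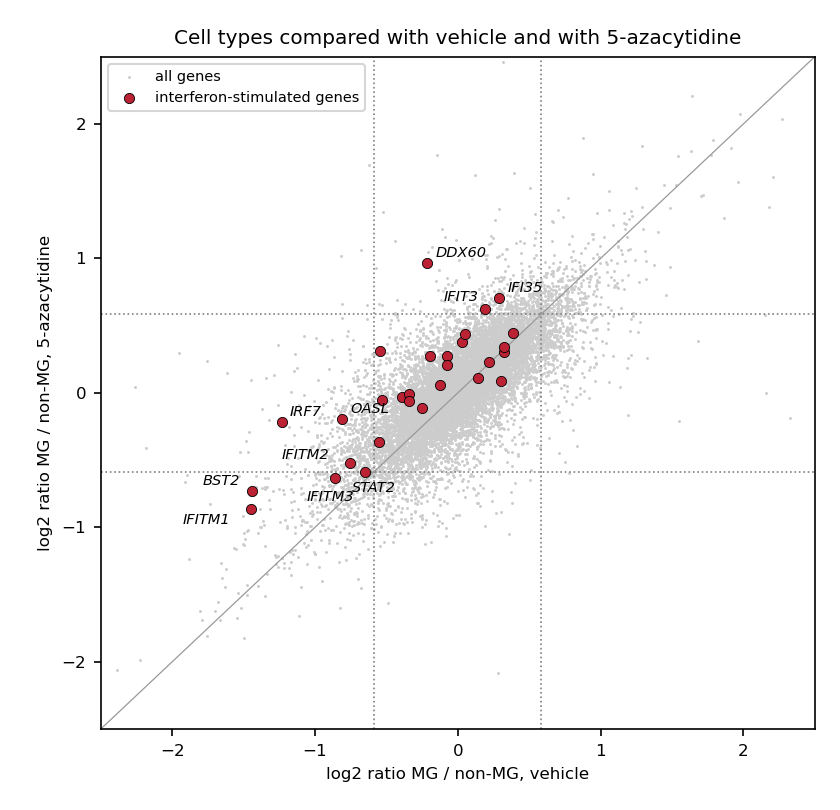
Log2 ratio of MG to non-MG cells with vehicle (x axis) and with 5-azacytidine (y axis), for all 12752 genes (grey) and the 29 interferon-stimulated genes (red), from 1 array per condition; dotted lines mark 1.5-fold, the diagonal equal ratios, and 14 genes lie outside the axes. IFITM1, IFITM3, BST2 and STAT2 lie past the lower line on both axes, and IRF7, OASL and IFITM2 on the x axis only.

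All 4 genes lower with 5-azacytidine were among the 7 lower with vehicle, that is 100% of the 4 and 57.1% of the 7. These comparisons share no array. Among all genes, 432 were lower in both, 57.1% of those lower with 5-azacytidine and 44.9% of those lower with vehicle. Over the 29 genes the vehicle and 5-azacytidine ratios of the cell types had a Pearson r of 0.80, and over all genes of 0.74. Genes on the same arrays are not independent, and the cell types differ in slide row in both comparisons.

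Among the transcription factors, IRF7 differed in both directions of the design. IRF7 is the factor that amplifies type I interferon production and is itself interferon-induced. Its scaled signal was 8.48 in non-MG cells with vehicle, 11.2 in non-MG cells with 5-azacytidine, 3.61 in MG cells with vehicle and 9.68 in MG cells with 5-azacytidine. The MG cells with vehicle stood lowest, and the other 3 arrays lay between 8.48 and 11.2. The ratio of MG to non-MG cells was -1.23 ± 0.08 with vehicle and -0.22 ± 0.08 with 5-azacytidine. 5-Azacytidine over vehicle was 1.42 ± 0.08 in MG cells, rank 60 from the highest of 12752 genes, and 0.41 ± 0.08 in non-MG cells.

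STAT2, a subunit of the complex that binds the response element, was lower in MG cells with either treatment. It had a scaled signal of 20.3 and 19.99 in non-MG cells with vehicle and 5-azacytidine, and of 12.9 and 13.3 in MG cells. The cell-type ratios were -0.65 ± 0.07 and -0.59 ± 0.07, the latter at the edge of 1.5-fold, and the responses to 5-azacytidine were -0.02 ± 0.07 in non-MG and 0.05 ± 0.07 in MG cells. With median centring the cell-type ratios of STAT2 were -0.46 and -0.33, neither past 1.5-fold. IRF9, the DNA-binding subunit of that complex, lay at 1.82 and 1.48 in non-MG cells and at 1.86 and 1.92 in MG cells, within 1.5-fold in all 4 comparisons. IRF1, a factor induced by interferon gamma, was at 0.985 and 0.753 in non-MG cells and at 0.673 and 0.932 in MG cells. Its response to 5-azacytidine was -0.39 ± 0.15 in non-MG cells and 0.47 ± 0.14 in MG cells, opposite in sign and within 1.5-fold in both.

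Of the 7 sensors of viral nucleic acid, 5 were well above background on all 4 arrays. IFIH1 (MDA5), the sensor of long double-stranded RNA, stayed within 1.5-fold, with responses to 5-azacytidine of 0.12 ± 0.10 in non-MG and 0.31 ± 0.11 in MG cells. OASL, a relative of the oligoadenylate synthetases, was at 2.81 and 2.41 in non-MG cells with vehicle and 5-azacytidine and at 1.60 and 2.10 in MG cells. Its ratio of MG to non-MG cells was -0.81 ± 0.10 with vehicle, or -0.53 with normexp, and -0.19 ± 0.10 with 5-azacytidine.

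DDX60, a helicase that promotes RNA sensing, was dim, with scaled signals of 0.297 and 0.170 in non-MG cells and 0.256 and 0.332 in MG cells. The non-MG cells with 5-azacytidine stood lowest, at an intensity of 12.8 where the dimmest probes well above background had 9.95 to 11.8. The response was -0.81 ± 0.35 in non-MG cells and 0.37 ± 0.25 in MG cells, and the cell-type ratio with 5-azacytidine was 0.97 ± 0.34. With normexp the ratios of DDX60 were -0.13 for the response in non-MG cells and 0.15 between the cell types with 5-azacytidine, neither past 1.5-fold. OAS3, which makes the oligoadenylate that activates RNase L, and EIF2AK2 (PKR), the kinase that halts translation on double-stranded RNA, stayed within 1.5-fold in all 4 comparisons. OAS1 was well above background in MG cells with 5-azacytidine only, at least 1.16-fold higher than with vehicle and at least 1.01-fold higher than in non-MG cells with 5-azacytidine. Its intensity there was 12.9, and the spot errors of these ratios were 0.39 and 0.63, so neither bound stands clear of them. The values given as "at least", here and below, make no allowance for spot error.

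The IFIT proteins, which bind foreign RNA and inhibit its translation, are among the genes most strongly induced by interferon in many cells. None of the 4 passed 1.5-fold with 5-azacytidine, with medians of -0.21 in non-MG and 0.05 in MG cells. IFIT1 had a scaled signal of 7.75 and 5.33 in non-MG cells with vehicle and 5-azacytidine, and of 6.77 and 6.43 in MG cells. That is a response of -0.54 ± 0.08 in non-MG cells and -0.07 ± 0.08 in MG cells. IFIT3 was dim, at 0.200 and 0.186 in non-MG and 0.228 and 0.287 in MG cells, and was past 1.5-fold between the cell types with 5-azacytidine only (0.62 ± 0.33). With normexp that ratio of IFIT3 was 0.0090. IFIT2 and IFIT3, and IFIT1 and IFIT5, are direct neighbours on chromosome 10.

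Among the ISG15 conjugation genes, the 4 measured on all arrays stayed within 1.5-fold in all 4 comparisons. ISG15, the ubiquitin-like modifier, was at 93.9 and 102.0 in non-MG cells with vehicle and 5-azacytidine, and at 103.5 and 109.9 in MG cells. Its 4 ratios lay between 0.09 and 0.14, each ± 0.07. HERC5, the ligase that attaches ISG15, is spotted 10 times on each array and so has the smallest spot error. Its responses were -0.26 ± 0.04 in non-MG and -0.08 ± 0.04 in MG cells. UBE2L6, the conjugating enzyme, and USP18, the protease that removes ISG15 and dampens receptor signalling, also stayed within 1.5-fold, with responses of USP18 of -0.34 in both cell types (± 0.12 in non-MG and ± 0.11 in MG cells). HERC6 was well above background in MG cells with vehicle only, at least 1.64-fold higher than in non-MG cells with vehicle and at least 1.55-fold higher than in MG cells with 5-azacytidine, by 1 of its 2 probes.

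The other antiviral effectors were mostly dim: 5 of 9 were well above background on no array, among them MX2 and RSAD2 (viperin). MX1, a GTPase that traps viral particles, ISG20, an exonuclease, and CMPK2, a nucleotide kinase beside RSAD2, stayed within 1.5-fold, with responses from -0.44 to -0.06 in non-MG cells and from -0.27 to 0.24 in MG cells. SAMD9, a restriction factor of poxviruses, was well above background on every array but that of non-MG cells with 5-azacytidine. It was at least 1.61-fold higher in MG than in non-MG cells with 5-azacytidine, and at least 1.08-fold lower with 5-azacytidine than with vehicle in non-MG cells. Where it was measured on both arrays, it gave 0.24 ± 0.39 between the cell types with vehicle and 0.33 ± 0.33 for 5-azacytidine in MG cells.

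Of the IFI genes and other induced genes, 5 of 9 were measured on all arrays and none passed 1.5-fold with 5-azacytidine. IFI35, a protein that associates with NMI, was at 1.47 and 1.38 in non-MG cells with vehicle and 5-azacytidine, and at 1.79 and 2.25 in MG cells. It was past 1.5-fold between the cell types with 5-azacytidine (0.71 ± 0.11) and not with vehicle (0.29 ± 0.11). In MG cells all 5 ratios of 5-azacytidine to vehicle lay above 0, between 0.11 and 0.33, and in non-MG cells 1 of 5 did, with a range from -0.20 to 0.03.

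The response to 5-azacytidine was then compared between the subpopulations, as the log2 ratio in MG cells minus that in non-MG cells. This uses all 4 arrays and leaves no replicate to test it with. The difference was above 0 for 26 of the 29 genes (89.7%), compared with 56.1% of all genes, with a median of 0.33 compared with 0.03. It passed 1.5-fold upward for 5 of 29 (17.2%, compared with 3.31% of all genes) and downward for 0 (1.81% of all genes). The 5 were DDX60 (1.18 ± 0.43), IRF7 (1.02 ± 0.12), IRF1 (0.86 ± 0.20), BST2 (0.71 ± 0.13) and OASL (0.62 ± 0.15). IRF7, BST2 and OASL are also 3 of the 7 genes lower in MG cells with vehicle, and a low value on that array enters both differences. The same array values therefore cannot serve as separate observations of a lower baseline and a larger response.

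**Figure D3:**
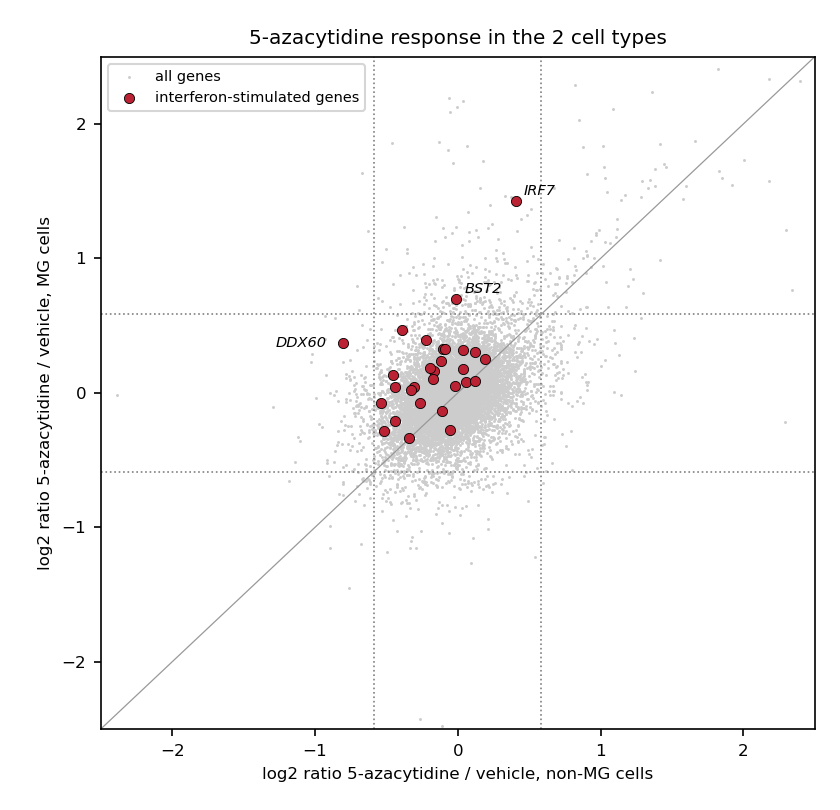
Log2 ratio of 5-azacytidine to vehicle in non-MG cells (x axis) and in MG cells (y axis), for all 12752 genes (grey) and the 29 interferon-stimulated genes (red), from 1 array per condition; dotted lines mark 1.5-fold, the diagonal equal responses, and 13 genes lie outside the axes. Of the red points, 26 lie above the diagonal, and only IRF7 and BST2 lie past the upper line.

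The steps before the interferon-stimulated genes were examined from lists of the pathway. Of 21 interferon genes, 17 had a matched probe and 15, IFNB1 among them, were well above background on none of the arrays. IFNE was so on some arrays and IFNL2 on all 4, where IFNL2 was dim, with intensities of 16.0 and 17.8 in non-MG cells with vehicle and 5-azacytidine and of 18.5 and 17.8 in MG cells. Its responses were 0.36 ± 0.35 in non-MG and -0.03 ± 0.33 in MG cells. All 6 receptor subunits were measured, and none passed 1.5-fold with 5-azacytidine. IFNAR1 gave responses of 0.43 ± 0.14 in non-MG and 0.27 ± 0.11 in MG cells, and IFNAR2 of -0.16 ± 0.06 and -0.31 ± 0.07. IFNGR2, a subunit of the interferon gamma receptor, was higher in MG than in non-MG cells when both had 5-azacytidine (0.79 ± 0.11), with a response of 0.29 ± 0.10 in MG cells.

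All 11 genes of JAK-STAT signalling and its brakes were measured. With vehicle 3 of the 11 (27.3%) were lower in MG cells and 0 higher: SOCS1 (-1.04 ± 0.15), STAT3 (-0.89 ± 0.08) and SOCS3 (-0.59 ± 0.09). Among all genes 7.55% were lower and 5.99% higher. Between the cell types with 5-azacytidine SOCS3 alone was lower (-0.62 ± 0.09), where 5.94% of all genes were lower. SOCS1, which inhibits the JAK kinases and is induced by interferons, was the single gene of this list whose response passed 1.5-fold, in MG cells (0.84 ± 0.15, compared with -0.11 ± 0.13 in non-MG cells). That is 1 of 11 (9.09%) higher in MG cells with 5-azacytidine, compared with 2.93% of all genes. The scaled signal of SOCS1 was 1.13 and 1.05 in non-MG cells and 0.548 and 0.979 in MG cells, lowest in MG cells with vehicle, as for IRF7 and BST2.

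Of 23 genes of nucleic acid sensing and its adaptors, 15 were measured on all arrays and 7 on none (TLR7, TLR9, CGAS, IFI16, AIM2, ZBP1 and IKBKE). In non-MG cells 1 of the 15 (6.67%) passed 1.5-fold with 5-azacytidine, downward, where 1.44% of all genes were lower. In MG cells 0 did, where 2.93% of all genes were higher and 1.61% lower. The gene was TLR3, the endosomal sensor of double-stranded RNA, with intensities of 24.8 and 11.2 in non-MG cells with vehicle and 5-azacytidine and of 30.6 and 44.3 in MG cells. Its response was -0.93 ± 0.37 in non-MG and 0.57 ± 0.21 in MG cells, and the ratio between the cell types with 5-azacytidine was 1.62 ± 0.35. As for DDX60, the low value was that of the 5-azacytidine-treated non-MG cells. That intensity of 11.2 was near the dimmest probe well above background on the same array, at 9.95.

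A further 47 genes that interferons are known to induce were taken as a comparison, of which 29 were measured on all arrays, 4 on some and 14 on none. The chemokines CXCL9, CXCL10, CXCL11 and CCL5 were among those on none. With 5-azacytidine 0 of 29 passed 1.5-fold in non-MG cells, and in MG cells 1 was higher (PARP10, 1.0 ± 0.14) and 0 lower. Among all genes 1.78% were higher and 1.44% lower in non-MG cells, and 2.93% and 1.61% in MG cells. The medians of the 29 were -0.07 in non-MG and 0.08 in MG cells, compared with -0.05 and -0.01 for all genes. Between the cell types with vehicle 1 of the 29 was higher in MG cells (WARS1, 0.65 ± 0.08) and 2 were lower (HELZ2, -0.80 ± 0.08, and TRIM5, -0.76 ± 0.23). That is 3.45% higher and 6.90% lower, compared with 5.99% and 7.55% of all genes. Between the cell types with 5-azacytidine NMI (0.73 ± 0.04), PLSCR1 (0.67 ± 0.10) and PNPT1 (0.62 ± 0.12) were higher in MG cells and SLFN5 lower (-0.67 ± 0.09). There 6.12% of all genes were higher and 5.94% lower. The median for the cell types was -0.10 with vehicle, compared with -0.21 for the 29 genes described above and 0.01 for all genes. The larger share of lower genes among those described above (24.1%) was thus not seen in this list.

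Markers of other cell types were looked at beside these responses. Of 7 leukocyte markers, PTPRC, CD3E and ITGAM were well above background on none of the arrays, and LYZ was not matched. CD14 and CD68 were measured on all arrays and were higher with 5-azacytidine in MG cells (1.0 ± 0.34 and 0.82 ± 0.15), and CD14 also in non-MG cells (0.87 ± 0.30, CD68 0.30 ± 0.17). Of 6 fibroblast markers COL1A1 alone was measured on all arrays, lower in MG cells with vehicle (-0.92 ± 0.15). Of 3 endothelial markers VWF alone was, higher with 5-azacytidine in MG cells (0.70 ± 0.09). CD14 and VWF were dim, with intensities from 13.5 to 27.1 and from 19.8 to 31.4. The dimmest probes well above background had 9.95 to 11.8. All the RNA came from cultures of the HCT116 line. The part of these marker genes in the responses of IRF7 and BST2 was not tested.

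**Figure D4:**
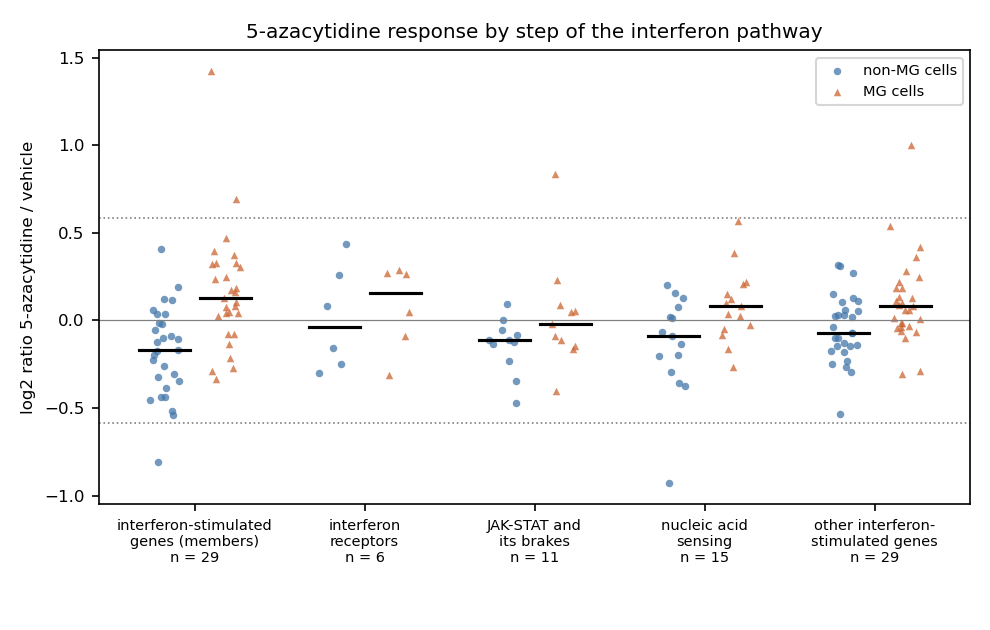
Log2 ratio of 5-azacytidine to vehicle in non-MG cells (circles) and MG cells (triangles) for genes of the interferon pathway measured on all 4 arrays; each symbol is 1 gene, bars are medians, dotted lines mark 1.5-fold, and 1 array stands behind each condition. In the 29 interferon-stimulated genes the medians are -0.17 and 0.13, and in the 29 other interferon-stimulated genes -0.07 and 0.08.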

How the data were processed

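RNA of MG and non-MG HCT116 cells with vehicle or 5-azacytidine was measured on 4 Agilent arrays, 1 per condition. The RNA reagent is RNAiso Plus per the labels and an RNeasy kit per the paper's methods. The authors deposited Feature Extraction 11.5.1.1 output per array: linear intensity values, background-corrected, not normalized between arrays, with flags. They also deposited log2 values for 24189 probes, centred per probe on the median of the 4 arrays. Their direction follows the labels, and the normalization of each array behind them is not stated.

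Here log2 of the background-corrected intensity minus the 75th percentile of its array was used. Control and outlier spots were left out (5 of 50599 probes), and spots of a probe were averaged. Probes were named through RefSeq accessions (30000 probes, 59.3%), and probes of a gene well above background on all 4 arrays were averaged. A probe not well above background on an array gives a bound: the brighter array against the higher of the dim signal and the lowest signal well above background there. Spot error was read from probes spotted 10 times, whose median SD fell from 0.58 at log2 intensities of 2 to 3 to 0.05 above 11. The 75th percentile was 75.2 to 98.7 and 21384 to 21882 probes per array were well above background. No spot was saturated. The number of arrays limits the precision.

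The members and lists were chosen with earlier results of these data known. Named are members past 1.5-fold in at least 1 comparison, those above background on some arrays, STAT2, IRF9, IRF7 and IRF1, and of other lists the genes past 1.5-fold (at most 6) with IFNB1, IFNAR1 and IFNAR2. Results for some genes of the lists are not reported here. Others were named after their values were seen. Alternatives were normexp with an offset of 50 (on median spot intensity, as the files used hold no mean), quantile normalization, median centring, the authors' values, other filters, the brightest probe, and 2-fold and 1.4-fold thresholds. Treating IFITM1 to IFITM3 as 1 gene was added after seeing the data. The counting was tested on simulated data. The tools were Python 3.11.15 (pandas 2.3.3, numpy 2.4.6), R 4.3.3 (limma 3.58.1) and, for plots, matplotlib 3.10.9.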

Additional observations from a re-analysis of the deposited data

Results flagged for a closer look

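OASL, IRF1 and IFITM1 had 5-azacytidine ratios of opposite sign in the 2 subpopulations, each ratio past 2 spot errors. OASL gave -0.22 in non-MG and 0.39 in MG cells, a difference of 0.62. IRF1 gave -0.39 and 0.47, a difference of 0.86. IFITM1 gave -0.45 and 0.13, a difference of 0.58. In MG cells its 2 probes gave 0.14 ± 0.08 and 0.12 ± 0.09, neither past 2 spot errors by itself. With 1 array per condition these differences were not tested. By the same measure 283 of 12752 genes had ratios of opposite sign (2.22%), compared with 3 of 29 interferon-stimulated genes (10.3%).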

How the results depend on the processing

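No alternative reversed the sign of a called result. The 75th percentile and the median of an array placed the cell types differently: with median centring the median of all genes moved between the cell types by 0.20 with vehicle and by 0.26 with 5-azacytidine, and 14.7% of all genes were higher and 3.50% lower with vehicle, and 20.8% and 2.02% with 5-azacytidine. The median of the 29 genes then became -0.0169 with vehicle and 0.34 with 5-azacytidine, while relative to all genes it stayed at -0.23 and 0.03. Between the cell types with 5-azacytidine, 7 genes were then higher and 1 lower, and 3 were lower with 5-azacytidine in non-MG cells. With normexp, which compresses the ratios of dim probes, the median was -0.0683 with vehicle, compared with 0.0305 for all genes. The median difference of the responses was then 0.18, compared with 0.0390 for all genes. Between the cell types with 5-azacytidine 1 gene was higher and 1 lower, where 5.28% and 1.06% of all genes were. In MG cells 1 was higher with 5-azacytidine, where 0.925% of all genes were. With no filter, dim signals were set to the lowest signal well above background (41 genes, compared with all 21611 matched genes). The medians between the cell types were then 0.0106 with vehicle and -0.0525 with 5-azacytidine, compared with 0.0106 and -0.111. For 5-azacytidine in non-MG cells the median was -0.0186, compared with 0.133. For the difference of the responses it was 0.18, compared with -0.121. Relative to the matched genes these 4 medians were 0, 0.06, -0.15 and 0.30. Past 2-fold 3 genes were lower with vehicle, where 1.41% of all genes were. Between the cell types with 5-azacytidine 0 were higher and 0 lower, where 0.894% and 0.910% of all genes were. With 5-azacytidine 0 were lower in non-MG cells (0.0706% of all genes) and 1 was higher in MG cells (0.878% of all genes). Past 1.4-fold 3 were lower with 5-azacytidine in non-MG cells, where 3.02% of all genes were. At 1.5-fold, 5 to 7 genes were lower with vehicle under every alternative, including IFITM1 to IFITM3 counted as 1 gene. Among all genes the share lower ran from 2.14% with normexp to 7.81% with the brightest probe. IRF7, IFITM1, BST2 and IFITM3 with vehicle, IRF7 with 5-azacytidine in MG cells, and IFITM1 and IFI35 between the cell types with 5-azacytidine passed 1.5-fold under all 7 other ways of processing. The remaining calls fell short under at least 1 of them. Normexp did so for OASL, DDX60 and IFIT3, for BST2 with 5-azacytidine in MG cells, for STAT2 between the cell types with either treatment, and for IFITM3 and BST2 between the cell types with 5-azacytidine. Median centring did so for the same calls of STAT2, IFITM3 and BST2 between the cell types and for IFITM2. Quantile normalization did so for IFITM3 with 5-azacytidine, and the authors' values for STAT2 with 5-azacytidine. The response differed past 1.5-fold upward for 5 genes, where it did for 3.31% of all genes. With normexp it did for 2, compared with 1.12% of all genes. Past 2-fold it did for 2, compared with 0.667% of all genes. No paired analysis was possible because each condition has 1 array with no replicate number, and for the same reason no replicate could be left out.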
